A study of Caenorhabditis elegans with 2 samples.

Results

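The genes described here are 8 regulators of fat genes in the nematode Caenorhabditis elegans: the SREBP homologue sbp-1, the coactivator mdt-15 and the nuclear hormone receptors nhr-49, nhr-80, nhr-13, nhr-66, nhr-68 and nhr-10. Their probe sets were those of the deposited array table to which the platform annotation gives exactly 1 gene symbol, that of a regulator. This rule found 11 probe sets for all 8 regulators, of 17118 genes that the table names in this way. Of the regulators, 6 were measured, meaning that their mean over both arrays was at least 6 on the log2 scale, as was that of 8059 genes in all. nhr-13 and nhr-10 lay below that limit, and their values are given as such.

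The arrays were made from whole N2 hermaphrodites, the wild type, in the fourth larval stage (L4), synchronised by bleaching and kept on Escherichia coli OP50 at 20 °C. The control group grew on plain nematode growth medium, and the exposed group on medium with 2 µg/mL of pOPC7 for 48 hours from the first larval stage. pOPC7 is a trimeric proanthocyanidin gallate, a polyphenol, taken from grape seeds (Vitis vinifera). Each group had 1 array, so no difference has a replicate check and no p-value was computed. The study asked how grape seed extracts affect lipids in the worm, and these regulators stand between nutrients and the genes that make, desaturate and burn fatty acids.

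SREBP proteins are made as precursors in the membrane of the endoplasmic reticulum, are cut free when lipids are short, and then enter the nucleus to turn on genes of fatty acid synthesis. SBP-1 does this in the worm with the help of MDT-15, a subunit of the Mediator complex that links transcription factors to RNA polymerase II. MDT-15 also serves NHR-49, a receptor related to HNF4 that promotes both fatty acid oxidation and desaturation. NHR-49 acts with other receptors of its kind, such as NHR-80 on desaturase genes and NHR-66 on genes of lipid remodelling. NHR-10 and NHR-68 switch on a side route for the breakdown of propionate when vitamin B12 is low. Much of the activity of these proteins is set by cleavage, ligands and partners, which an array of transcripts does not show.

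None of the 8 regulators differed by 1.5-fold between the arrays. The coactivator mdt-15, sbp-1 and nhr-80 lay slightly higher with pOPC7, and nhr-68, nhr-66 and nhr-49 lay lower among the measured regulators. The widest of these differences was that of nhr-68, at 0.77 of the control. Over all measured genes, 0.943% differed by 1.5-fold or more, 0.732% being higher and 0.211% lower, and 0 of 6 is near that background. With no limit on level 2.4% of all genes passed 1.5-fold, and still none of the 8 regulators did. The difference is pOPC7 minus control on the log2 scale throughout.

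**Figure D1:**
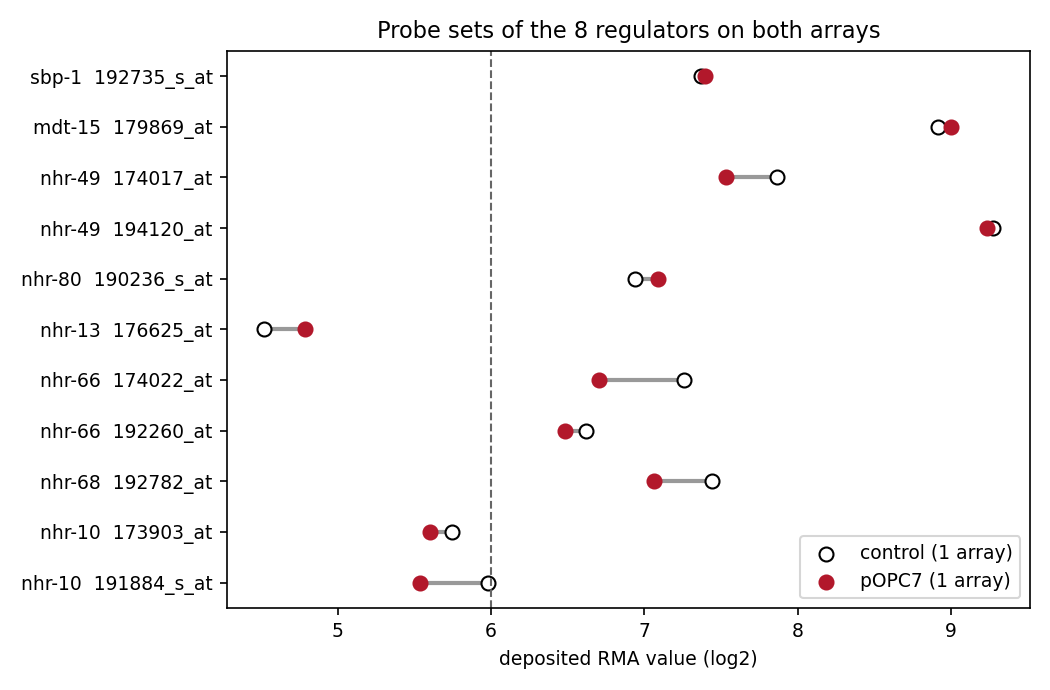
Deposited RMA value (log2, horizontal axis) of each of the 11 probe sets of the regulators in the control array (open) and the pOPC7 array (red), with the measured limit of 6 dashed. The probe sets of nhr-66, nhr-68, nhr-49 and nhr-10 lie lower with pOPC7, and those of sbp-1, mdt-15, nhr-80 and nhr-13 higher.

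sbp-1 (Y47D3B.7), the worm's only SREBP gene, read 7.37 in the control and 7.39 with pOPC7 on its single probe set. The arrays were almost level for this gene, with a difference of 0.03 that is below the median of 0.04 over all measured genes. Its sign therefore turned when the arrays were centred on that median (-0.01) or when a trend with level was removed (-0.03). The suffix of its probe set, _s_at, marks probes that may match several transcripts.

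mdt-15 (R12B2.5) read 8.91 in the control against 9.0 with pOPC7, which is higher by 0.09 or 1.06-fold. Among the 1286 genes within 0.5 log2 units of its level the differences had a median of 0.02 and an SD of 0.17, so this gene sat well inside their spread. The 22 other Mediator subunits named on the array are the nearest relatives of mdt-15 by function, and 21 of them were measured. None passed 1.5-fold, 12 lay above 0, and their median was 0.02. The subunits ran from mdt-6 (6.59 and 6.13, a difference of -0.45), mdt-10 (-0.43) and mdt-26 (-0.26) to sur-2 (0.42), which encodes the MED23 subunit. sur-2 rested on a pair of probe sets that were both higher, 172005_x_at by 0.54 and 190922_s_at by 0.30. mdt-6 rested on 173510_s_at alone and mdt-10 on 186988_at alone. Probes of the sets with the suffixes _x_at and _s_at may match several transcripts.

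nhr-49 (K10C3.6) was covered by 2 probe sets that lay at different levels. Probe set 174017_at read 7.86 in the control against 7.53 with pOPC7 (-0.33). Probe set 194120_at read 9.27 against 9.23 (-0.04). Both lay lower with pOPC7, but the brighter one by next to nothing. The gene value, their mean, went from 8.57 to 8.38 (-0.19, or 0.88-fold), and with the brighter probe set alone it was -0.04. Among the 1714 genes of like level, 10.7% were lower than nhr-49.

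nhr-80 (H10E21.3), which keeps up the expression of stearoyl-CoA desaturase genes, had 6.94 in the control and 7.09 with pOPC7. Its difference of 0.15 was the highest among the measured regulators, and 32.6% of the 2509 genes of like level were higher still. The only probe set of nhr-80, 190236_s_at, carries the same suffix as that of sbp-1. nhr-13 (Y5H2B.2), a receptor found to bind NHR-49, was dim on both arrays, at 4.52 in the control and 4.79 with pOPC7. Differences of dim genes scatter more widely, with an SD of 0.29 at that level, and the 0.27 of nhr-13 lay inside it.

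nhr-66 (T09A12.4), an NHR-49 partner, was again covered by 2 probe sets of unequal difference. Probe set 174022_at fell short of 1.5-fold (0.58 on the log2 scale), with 7.26 in the control against 6.71 with pOPC7 (-0.55). Probe set 192260_at read 6.62 against 6.48 (-0.14). Both were lower with pOPC7, and the gene value went from 6.94 to 6.59 (-0.35, or 0.79-fold). Only 3.61% of the 2408 genes of like level were lower. RefSeq lists 10 transcripts for nhr-66 and 5 for nhr-49, and which of them each probe set reads was not analysed here.

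nhr-68 (H12C20.3) read 7.44 in the control and 7.06 with pOPC7 on its single probe set (-0.38, or 0.77-fold). It was the lowest of the 8 regulators, and 1.90% of the 2480 genes of like level were lower. nhr-10 (B0280.8), which acts with nhr-68 on propionate genes, was below the measured limit on both of its probe sets. Probe set 173903_at had 5.74 in the control and 5.60 with pOPC7, and probe set 191884_s_at had 5.98 and 5.54. Both were lower (-0.14 and -0.44), and the gene value differed by -0.29.

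**Figure D2:**
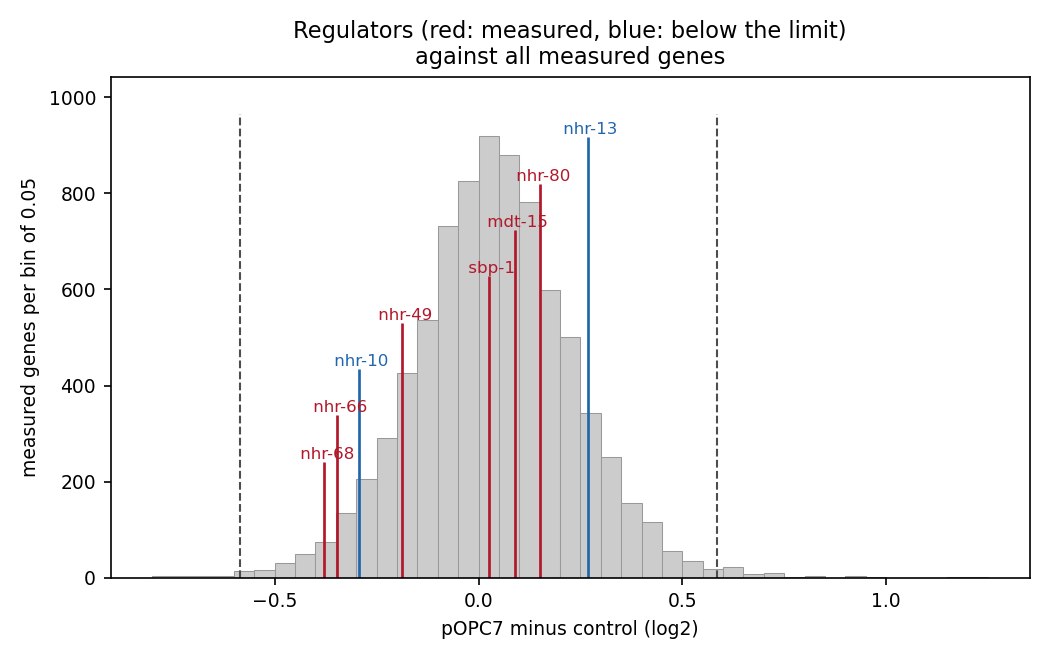
Number of measured genes (vertical axis) by difference between the arrays (pOPC7 minus control, log2, bins of 0.05), with the 6 measured regulators as red lines, the 2 below the limit as blue lines and 1.5-fold dashed. The heights of the coloured lines carry no value. nhr-68, nhr-66 and nhr-10 lie in the lower flank, and every regulator lies between the dashed lines.

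As a group the 6 measured regulators had a median difference of -0.08 and a mean of -0.11, with 3 above 0, beside a median of 0.04 and 57.8% above 0 over all measured genes. The median depends on which genes count as measured. It was 0.03 with a limit of 7, which leaves out nhr-66, -0.19 with a limit of 5, which lets in nhr-10, and -0.27 without _s_at and _x_at probe sets. The SD among the measured regulators was 0.23, beside 0.20 for all measured genes. At 1.2-fold, a threshold chosen after the values were seen, 2 of the 6 were lower, nhr-68 and nhr-66, where 6.06% of measured genes were lower and 11.6% higher by that much. None of the 6 was higher by 1.2-fold. Below the limit, nhr-10 was lower and nhr-13 higher by slightly more than 1.2-fold.

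nhr-68 and nhr-66 stood low among their own gene class. Of 39 measured genes named nhr, nhr-68 had the lowest difference and nhr-66 the next lowest, nhr-49 ranked 7th and nhr-80 ranked 26th from the bottom. The class had a median of 0.10, and 1 of its members was higher by 1.5-fold and none lower, where 0.732% and 0.211% of measured genes were. With a limit of 5, 92 such genes were measured, and nhr-68 ranked 3rd, nhr-66 4th and nhr-10 8th from the bottom. These ranks describe 2 arrays and were not tested.

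How far single probe sets can be trusted shows in genes that have several. In 1721 genes a pair of measured probe sets could be compared, taking the first 2 by number, and their differences lay apart by a median of 0.21, and 48.9% of pairs had the same sign. A scatter of 0.22 (SD) per probe set would give gaps of about this size, but scatter need not be their only source. Differences also moved with the number of the probe set, as described below. In 1299 genes with low-numbered and high-numbered probe sets, the low-numbered side was the lower one in 74.6%. The mean of low minus high was -0.19. The part of this offset in the gaps and in the share of equal sign was not tested. The gap of nhr-49 was 0.29, wider than that of 63.4% of the 1721 genes, and the gap of nhr-66 was 0.42, wider than 79.7%. Without a limit on level the gap of nhr-10 was 0.30, wider than that of 63.1% of 2981 genes. The levels of the nhr-49 pair were 1.56 apart, beside a median of 0.80, and those of nhr-66 were 0.43 apart. Both probe sets of nhr-49, nhr-66 and nhr-10 lay lower with pOPC7. How many of all pairs had both lower was not counted. The lower-numbered ones of nhr-49 and nhr-66 lie in a range of numbers where differences were low in general, described below. The other 5 regulators rest on 1 probe set each, so nothing on the arrays checks them. Since brightness also depends on the probes, levels of different genes are not compared here.

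**Figure D3:**
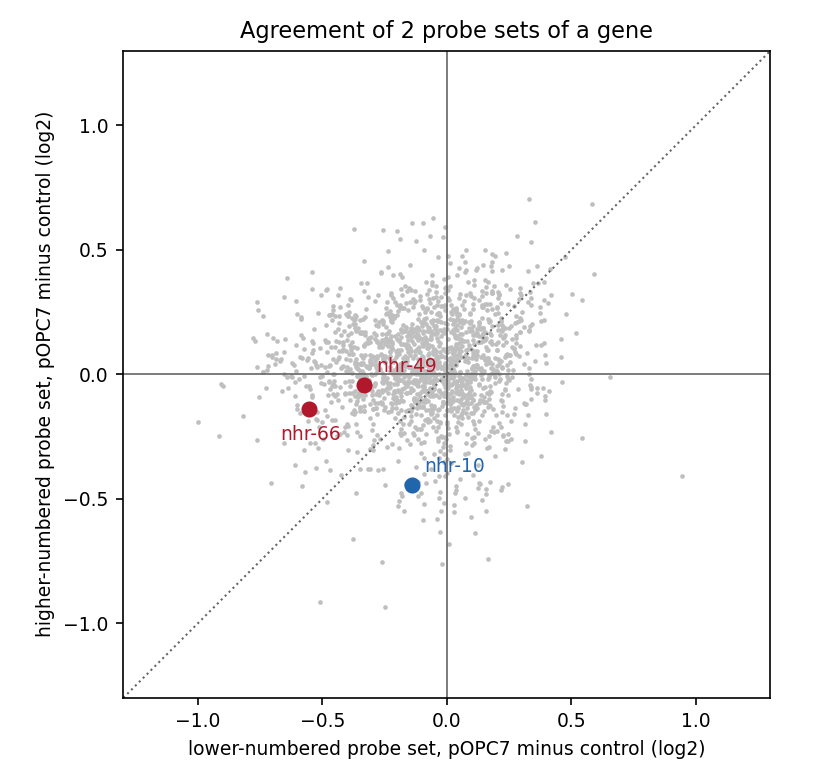
Difference between the arrays (pOPC7 minus control, log2) in the lower-numbered (horizontal) and higher-numbered (vertical) of the first 2 measured probe sets of 1721 genes (grey), with nhr-49 and nhr-66 in red and nhr-10, below the limit, in blue. The grey points show almost no shared direction. nhr-49, nhr-66 and nhr-10 lie in the corner where both probe sets are lower, and the share of grey points there was not counted.

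The number of a probe set moved with these values. The 2474 measured probe sets numbered below 176000 had a median difference of -0.06, against 0.06 for the 7971 with higher numbers, a division chosen after the values were seen. The shift was steepest from 174000 to 174999, where 592 probe sets had a median of -0.15. Within 444 genes that have a measured probe set in that range and a high-numbered one, the difference of the former was the lower one in 80.2%, and the median of the former less the latter was -0.25.

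The wider gaps of nhr-49 and nhr-66 run the same way. Their lower probe sets, 174017_at and 174022_at, are both in that range, and lay below their high-numbered partners (low minus high, -0.29 and -0.42). nhr-10 went the other way, its low-numbered probe set being the less changed one (0.30). Without low-numbered probe sets nhr-49 differed by -0.04, nhr-66 by -0.14 and nhr-10 by -0.44. With the median of each block of 1000 numbers set equal, nhr-49 was at -0.09, nhr-66 at -0.26 and nhr-10 at -0.27. In both of these settings nhr-66 was short of 1.2-fold (0.26 on the log2 scale), and it ranked 4th of 40 and 3rd of 39 nhr genes from the bottom. nhr-68 lies in the high-numbered part, was at -0.38 and -0.39, and ranked lowest in both. With the brightest probe set of each gene nhr-66 ranked lowest of 45 and nhr-68 2nd, and with the brighter array at 6 or more nhr-68 ranked 2nd and nhr-66 3rd of 44. The part of the numbering in the lower values of nhr-49 and nhr-66 was not tested beyond these values.

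**Figure D4:**
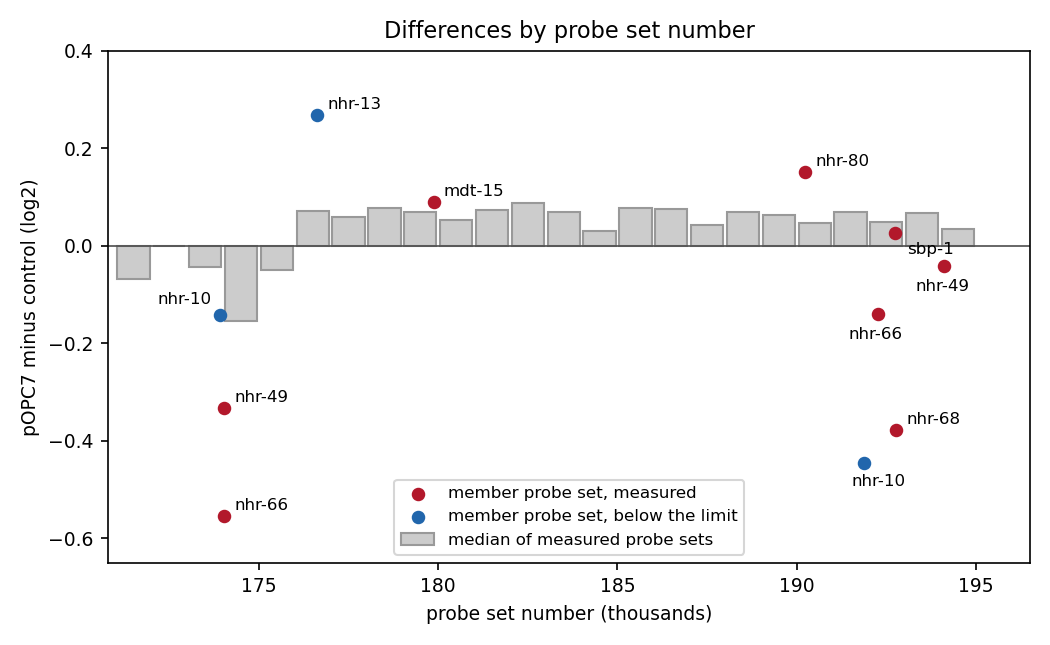
Median difference between the arrays (pOPC7 minus control, log2) of all measured probe sets in each block of 1000 probe set numbers (grey bars), with each probe set of the regulators as a point, red where measured and blue where below the limit. Bars for numbers below 176000 are at or under 0 and the others above it. nhr-68 and the high-numbered probe set of nhr-10 lie low where the bars are above 0.

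Genes that act on SBP-1 or under these regulators were taken from 8 lists, with 104 genes, of which 75 were measured. Of these 75, 1 was higher and 1 lower by 1.5-fold, fat-7 and acs-2, near the background of 0.732% and 0.211% of measured genes, and the median of the 75 was 0.01. Members and lists were chosen with results of these arrays known, so the counts are no independent evidence.

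SBP-1 is released when phosphatidylcholine is scarce, and the list of its upstream control held 11 measured genes with a median of 0.01, 6 above 0 and none past 1.5-fold. The choline kinase gene ckb-2 was highest (0.35), and the phosphoethanolamine methyltransferase gene pmt-1 (-0.24) and the lipin gene lpin-1 (-0.20) were lowest, with pcyt-1 at 0.13. sams-1, which makes the methyl donor S-adenosylmethionine, had 9.68 and 9.79, from 3 probe sets at -0.06, 0.16 and 0.22. scp-1, the homologue of the SREBP escort protein SCAP, was below the limit only as the mean of its probe sets, at 5.82 in the control and 6.10 with pOPC7. The brighter one read 6.94 and 7.26 (0.32), above the limit, and the dimmer one 4.70 and 4.95 (0.25).

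Downstream of SBP-1, 10 measured genes of fatty acid synthesis had a median of 0.13, with 6 above 0, while sbp-1 itself was level. The acetyl-CoA carboxylase gene pod-2 (0.12) and the fatty acid synthase gene fasn-1 (-0.02) differed little. The elongase genes elo-2 (0.19) and elo-6 (0.17) and the desaturase gene fat-6 (0.19) were higher. fat-6 rests on a single _s_at probe set, whose probes may match several transcripts. fat-7, served by NHR-80, NHR-49 and MDT-15, had 5.98 in the control and 6.57 with pOPC7. Its difference of 0.59 is barely past 1.5-fold and close to the measured limit, and was 0.55 after centring, short of it. Of the 3 desaturase genes under NHR-80 and NHR-49, fat-5 was below the limit at 5.404 and 5.425, and the measured pair had a median of 0.39. With fat-5 let in the median of the 3 was 0.19, and fat-7 passed the limit through the pOPC7 array alone, its control value being below 6.

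Of 10 NHR-49 targets in fat oxidation and stress, 5 were measured, with a median of -0.15, 1 above 0 and 1 lower by 1.5-fold. That one was acs-2, an acyl-CoA synthetase gene, which went from 8.80 to 8.20 (-0.60). Its probe sets differed by -1.0 (174675_at, 7.93 in the control and 6.93 with pOPC7) and by -0.19 (192195_at, 9.67 and 9.47). The larger one is again numbered from 174000 to 174999, as in nhr-49 itself, and without low-numbered probe sets acs-2 was at -0.19, short of 1.5-fold, and the list's median was -0.01. The glyoxylate cycle gene icl-1 (-0.23) was lower and the carnitine palmitoyltransferase gene cpt-2 (0.09) higher. acdh-2, whose value of -0.15 is the list's median, had probe sets that differed in sign. Its lower-numbered one was at -0.35 and its brighter, higher-numbered one at 0.04.

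The list of propionate and B12 genes lay beside a lower nhr-68 and a lower nhr-10. All 13 of its genes were measured, none passed 1.5-fold, 3 were above 0 and the median was -0.03. The 5 genes of the shunt itself, acdh-1, ech-6, hach-1, hphd-1 and alh-8, had a median of -0.02, with 4 below 0. acdh-1, the acyl-CoA dehydrogenase gene that heads the shunt and is widely used as its reporter, had 12.40 in the control and 12.23 with pOPC7 (-0.17). The other 8 genes, of the B12-dependent route and of other B12 use or handling, had a median of -0.06. Of these, mmcm-1 (-0.22), mtrr-1 (-0.21) and pccb-1 (-0.18) were lowest. Bright genes in general lay a little lower with pOPC7: 769 measured genes at a level of 10 or more had a median of -0.01. Of them 55.8% were below 0, against 41.6% of all measured genes. acdh-1 is that bright, but mmcm-1 (8.54 in the control and 8.33 with pOPC7), mtrr-1 (9.25 and 9.04) and pccb-1 (7.30 and 7.12) are not. The part of brightness in the propionate and B12 genes was not tested.

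The list of other nuclear receptors linked to fat or diet had a median of 0.10 over 9 measured genes, 7 above 0 and none past 1.5-fold. nhr-23, a regulator of moulting, was at 0.50, with both probe sets higher (0.59 and 0.40). It was followed by nhr-86 (0.25) and nhr-114 (0.17), and nhr-105 was lower (-0.22). Both probe sets of nhr-23 and that of nhr-86 carry the suffix _s_at. MDT-15 also serves detoxification and metal response, and 6 of the 12 genes of that list were measured, with a median of 0.05 and none past 1.5-fold. The cytochrome P450 gene cyp-35C1 (-0.28) was lowest, and the glutathione S-transferase gene gst-5 (0.15) and the metallothionein genes mtl-2 (0.10) and mtl-1 (0.08) were above 0.

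**Figure D5:**
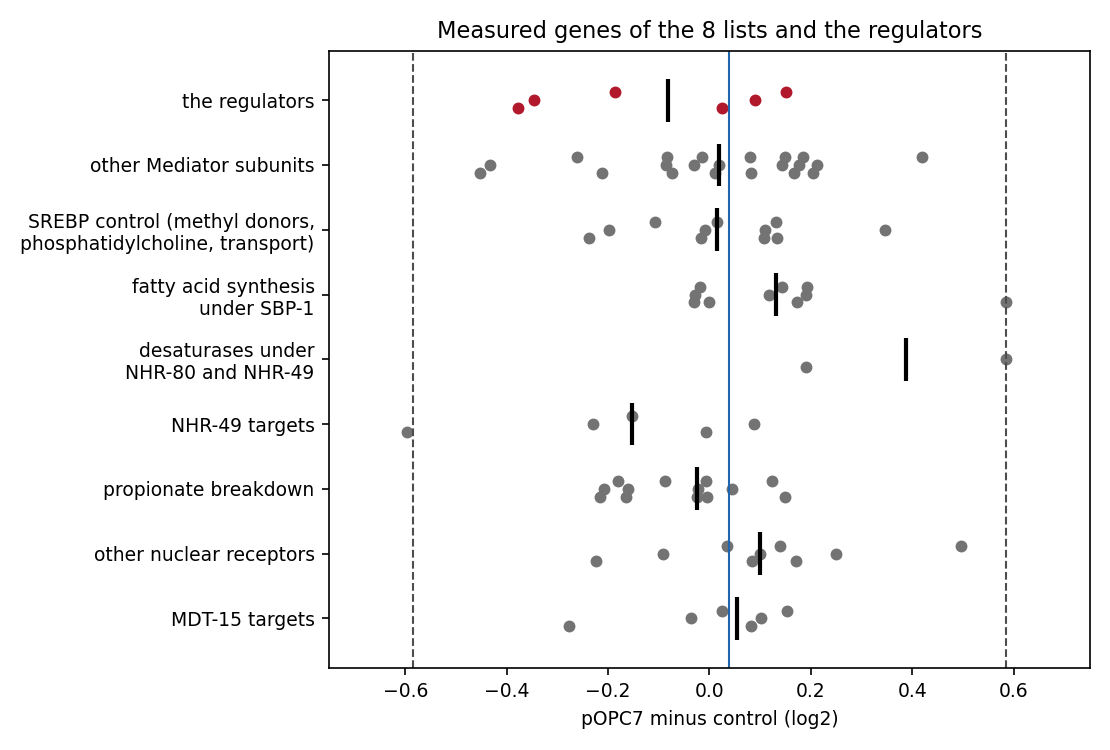
Difference between the arrays (pOPC7 minus control, log2) of each measured gene in 8 lists around the regulators (grey) and of the 6 measured regulators (red), with the median of each row as a black bar, that of all measured genes (0.04) as a blue line and 1.5-fold dashed. The vertical spread within a row carries no value. fat-7, in the synthesis and the desaturase rows, and acs-2, among the NHR-49 targets, reach the dashed lines.

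These regulators act largely in the intestine, whose markers were present on both arrays. Of 8 intestinal markers 7 were measured, with a median of 0.01 and differences from -0.16 (vha-6) to 0.33 (elt-7). The defining intestinal factor elt-2 was below the limit at 5.55 and 5.52. Markers of L4 sperm had a median of -0.26 over 6 measured genes, from -0.36 (fer-1) to 0.17 (gsp-3), with 2 above 0. The sperm marker spe-9 was below the limit and higher, at 5.49 in the control and 5.86 with pOPC7 (0.37). Those of oocytes and yolk of the adult had -0.22 over 7, from -0.32 (cbd-1) to 0.07 (vit-6), again with 2 above 0. The yolk genes were bright on both arrays, with vit-2 at 11.99 in the control and 11.73 with pOPC7, and vit-5 at 12.28 and 12.31. Of 4 male genes on the array none was measured. Summed over each list before the logarithm, the level went from 13.33 to 13.34 for intestine and from 11.51 to 11.49 for sperm. For oocytes and yolk of the adult it went from 13.96 to 13.896. The male sum went from 6.60 to 7.02, but each gene in it lay below the limit on both arrays. These were mab-3 (5.18 in the control and 5.68 with pOPC7), ram-5 (5.32 and 5.81), pkd-2 (3.95 and 4.12) and lov-1 (2.52 and 2.36). In RNA of whole worms, fewer cells of a type and less RNA per cell cannot be told apart. The part of stage and tissue makeup in the differences of the regulators was not tested.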

How the data were processed

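The table of 22625 probe sets holds 1 column per array. The authors deposited log2 values made with RMA, per the submitters' processing notes. The log scale was read from the range (1.78 to 13.9), and what hybridisations stand behind a column, or which version was run, is not given in the sources used here. Column medians were 5.94 (control) and 5.99 (pOPC7). RMA in its usual form makes the distributions of arrays equal, which removes shifts shared by all genes, and these medians are close but not equal.

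Of the probe sets, 20766 had 1 symbol in the platform annotation, 887 several and 972 none. Probe sets naming a gene alone were averaged. Genes with a mean of at least 6 were measured, and 1.5-fold was the threshold. Spread at a gene's level was taken over all genes within 0.5 of it. The regulators and the 8 lists were chosen with earlier results of these data known, and 9 of the 104 list genes were not found under that name alone. Genes were named as all regulators, list genes past 1.5-fold, up to 4 of each list with the largest difference, and fat-5, fat-6, fat-7, acs-2, acdh-1, scp-1 and sams-1. A few others (pod-2, fasn-1, and elt-2, vha-6 and the other markers given singly) were named after their values were seen. No gene was named for a pattern like a regulator's, since over 2 arrays any pair of genes correlates fully. Sequence names and transcript numbers come from RefSeq. The code was tested on simulated data. Python 3.11.15, pandas 2.3.3, numpy 2.4.6, statsmodels 0.14.6 (loess, span 0.3) and matplotlib 3.10.9 were used.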

Additional observations from a re-analysis of the deposited data

How the results depend on the processing

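No paired analysis was possible because each group holds 1 array, and no replicate could be left out. A division of probe sets at the widest gap in their numbers was planned and not run, since the numbers have no gap. Values were compared under 8 planned settings and 2 chosen after seeing the data (without low-numbered probe sets, and each block of 1000 numbers set equal), with a shift counted when it passed the SD of a single probe set, 0.22, divided by the root of the number of genes. No regulator's difference shifted by that much. nhr-49 ran from -0.23 to -0.04, nhr-66 from -0.55 to -0.14, nhr-68 from -0.44 to -0.38, nhr-10 from -0.44 to -0.14, nhr-80 from 0.09 to 0.15, nhr-13 from 0.20 to 0.27, mdt-15 from 0.05 to 0.09 and sbp-1 from -0.03 to 0.03.

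No regulator passed 1.5-fold in any setting. At 1.2-fold, 2 of the 6 measured ones were lower and none higher, beside 6.06% of measured genes lower and 11.6% higher. With no limit on level 4 of the 8 passed 1.2-fold, 1 higher and 3 lower. Of all 17118 genes, 3005 were higher and 1232 lower by that much. The regulators' median was -0.19 with a limit of 5, 0.025 with 7 and -0.27 without _s_at and _x_at probe sets, since each changes which genes enter. The list genes past 1.5-fold numbered 2. They numbered 1 with a limit of 7, after centring, without the trend on level, with the brightest probe set or without low-numbered ones. With numbers set equal or at 2-fold they numbered 0. At 1.2-fold they were 8 of 75, beside 1423 of all 8059 measured genes. The desaturase median was 0.19 with a limit of 5 or none, where fat-6 is the middle of 3 genes. With a limit of 7 only 1 gene was left, fat-6 (0.19), and without _s_at and _x_at only fat-7 (0.59). The Mediator median was 0.082 with a limit of 7, 0.080 with the brightest probe set, 0.081 without low-numbered ones and -0.040 without the trend. That of SREBP control was 0.080 without _s_at and _x_at and 0.11 without low-numbered probe sets, and its sign turned after centring (-0.024) and without the trend (-0.025). The NHR-49 list was at -0.045 with no limit, -0.052 with the brightest probe set and -0.0075 without low-numbered ones. The propionate list was at -0.17 without _s_at and _x_at. The other receptors were at 0.17 with a limit of 7, with none and with the brightest probe set. The cause was not tested where the genes entering stayed the same. All genes past 1.5-fold numbered 76, against 151 with a limit of 5, 29 with 7, 410 with none and 1423 at 1.2-fold.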

Other observations

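A probe set that names mdt-15 together with R12B2.6 was left out of the values above. It read 6.54 in the control against 6.79 with pOPC7 (0.26), and it cannot be assigned to either gene. Another that names sams-2 and sams-3 together, genes of S-adenosylmethionine synthesis, had 8.83 and 8.71 (-0.11).

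Of the 16 protein-coding genes that flank the regulators in the RefSeq order, 5 were measured, and none differed by 1.5-fold. They ran from -0.05 (idpc-1, next to sbp-1) to 0.41 (K10C3.5, next to nhr-49). Both neighbours of nhr-10 were measured and almost level, B0280.7 at -0.02 and B0280.9 at -0.03. The receptor gene nhr-22, below the measured limit and named after its values were seen, had 4.13 in the control and 4.88 with pOPC7 (0.75).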
